A study of Mus with 8 samples.

Results

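The glucocorticoid receptor gene Nr3c1 and 9 genes known as its direct or early targets were followed through the hormonal induction of 3T3-L1, a mouse preadipocyte line. The 10 genes were taken as listed glucocorticoid response genes, matched by NCBI gene number to the count table, and make 10 of the 24013 genes counted. They are Nr3c1, Fkbp5, Tsc22d3, Zbtb16, Dusp1, Sgk1, Errfi1, Mt1, Mt2 and Hsd11b1, and all of them passed the filter on low counts, which kept 13339 genes. RNA was sequenced from C cells, infected with a lentivirus carrying a scrambled shRNA, and from P cells, infected with an shRNA against Prep1, a homeobox factor whose gene is listed as Pknox1. Both lines were selected with puromycin. The P cells carried 1 shRNA, so the knockdown and other effects of this shRNA or of the line cannot be told apart. They were collected at day −2, before induction, and at day 1, a day after a cocktail of 1 µM dexamethasone, 0.5 mM IBMX and 1 µg/ml insulin in medium with 10% fetal serum. Each of the 4 conditions had 2 biological replicas, which makes 8 libraries. Day 1 differs from day −2 by the steroid, the phosphodiesterase inhibitor, the insulin, the change of serum and the time together, and these cannot be told apart.

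The glucocorticoid receptor waits in the cytoplasm bound to heat shock proteins and immunophilins, enters the nucleus when a steroid binds it, and raises or lowers the transcription of genes near its binding sites. Dexamethasone is a synthetic ligand of this receptor and a standard part of the cocktail that turns preadipocytes into fat cells. Several early targets act back on signalling: FKBP51, encoded by Fkbp5, lowers the affinity of the receptor for its ligand, GILZ, encoded by Tsc22d3, restrains inflammatory transcription, and the phosphatase encoded by Dusp1 switches off MAP kinases.

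The libraries held between 20428816 and 27614353 counts, at which 3 counts correspond to 0.107 to 0.160 CPM (normalized counts, scaled to the library size by TMM), a limit that covers counting error only. Pknox1, the targeted gene, had 28.1 and 26.5 CPM in the C libraries and 17.3 and 18.3 in the P libraries of day −2, and 38.1 and 36.5 against 23.6 and 23.8 at day 1. Its log2 ratio, P over C, was −0.62 at day −2 (adjusted p = 0.0558) and −0.65 at day 1 (adjusted p = 0.0575), smaller than the ratio threshold. Among the 13 preadipocyte markers, the collagen gene Col1a2 had the highest mean at day −2, 4872 CPM in C and 17966 CPM in P cells. The 13 markers summed to between 16177 and 26065 CPM in 7 libraries and to 78477 CPM in replica 1 of P cells at day −2. The 2 replicas of this condition were also the farthest apart. The SD of their log2 difference was 0.795 over 5600 well expressed genes, against 0.121 to 0.261 in the other conditions. Most counts that use these replicas are therefore given also without each of them, as are single genes that then lost their call. The 11 adipocyte markers summed to between 86.0 and 87.1 CPM for C and 246 and 258 CPM for P at day −2. At day 1 they summed to between 212 and 214 CPM and 632 and 675 CPM. Much of these sums was Lpl, with means of 58.2 CPM in C and 191 CPM in P cells at day −2, and 130 and 396 CPM at day 1. The lists of macrophage, endothelial, epithelial and muscle markers stayed at or below 24.7, 10.3, 5.74 and 8.31 CPM, and 5 of the 7 muscle markers had 3 counts or fewer in every library. In RNA of whole cultures, a change in the number of cells that express a gene and a change in the RNA per cell cannot be told apart.

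Calls required an adjusted p-value below 0.1 together with a ratio above 2 or below 0.5. In C cells, 8 of the 10 genes rose between day −2 and day 1 and none fell, while 10.7% of all genes tested rose and 9.68% fell. In P cells, 7 of the 10 rose and none fell, against 7.65% and 10.4% of all genes. The median log2 ratio of the 10 genes was 2.39 for C and 1.81 for P, and that of all genes was −0.01 and 0.02. Without replica 1 of P cells at day −2, 7 rose in P cells, and without replica 2 all but Nr3c1 and Sgk1 rose, 8 in all, where 7.3% and 19.8% of all genes did. These log2 ratios then lay between 1.65 and 2.39 for Fkbp5, 2.94 and 3.62 for Tsc22d3 and 1.61 and 2.47 for Mt1. Tsc22d3, Zbtb16 and Mt2 had the largest ratios in both lines, and Nr3c1 and Sgk1 were called in neither. Between P and C cells, 0 of the 10 genes were called at either day. In order of their condition means, Fkbp5, Tsc22d3 and Dusp1 went from C cells and then P cells at day −2 to P cells and then C cells at day 1. Mt1, Mt2 and Hsd11b1 had P below C at both days, and Zbtb16 and Errfi1 had P below C at day −2 and above it at day 1. Neighbours of the same day were called as different for none of these 8 genes, and neighbours of different days had separate libraries for all of them but Hsd11b1. The p-values rest on 1 fit to all 8 libraries. Its spread between biological replicas is estimated over the 4 conditions together and drawn in part from other genes. The far-apart replicas of P cells at day −2 thus enter every test. With 2 libraries on each side, the smallest p of an exact permutation test is 0.333.

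**Figure D1:**
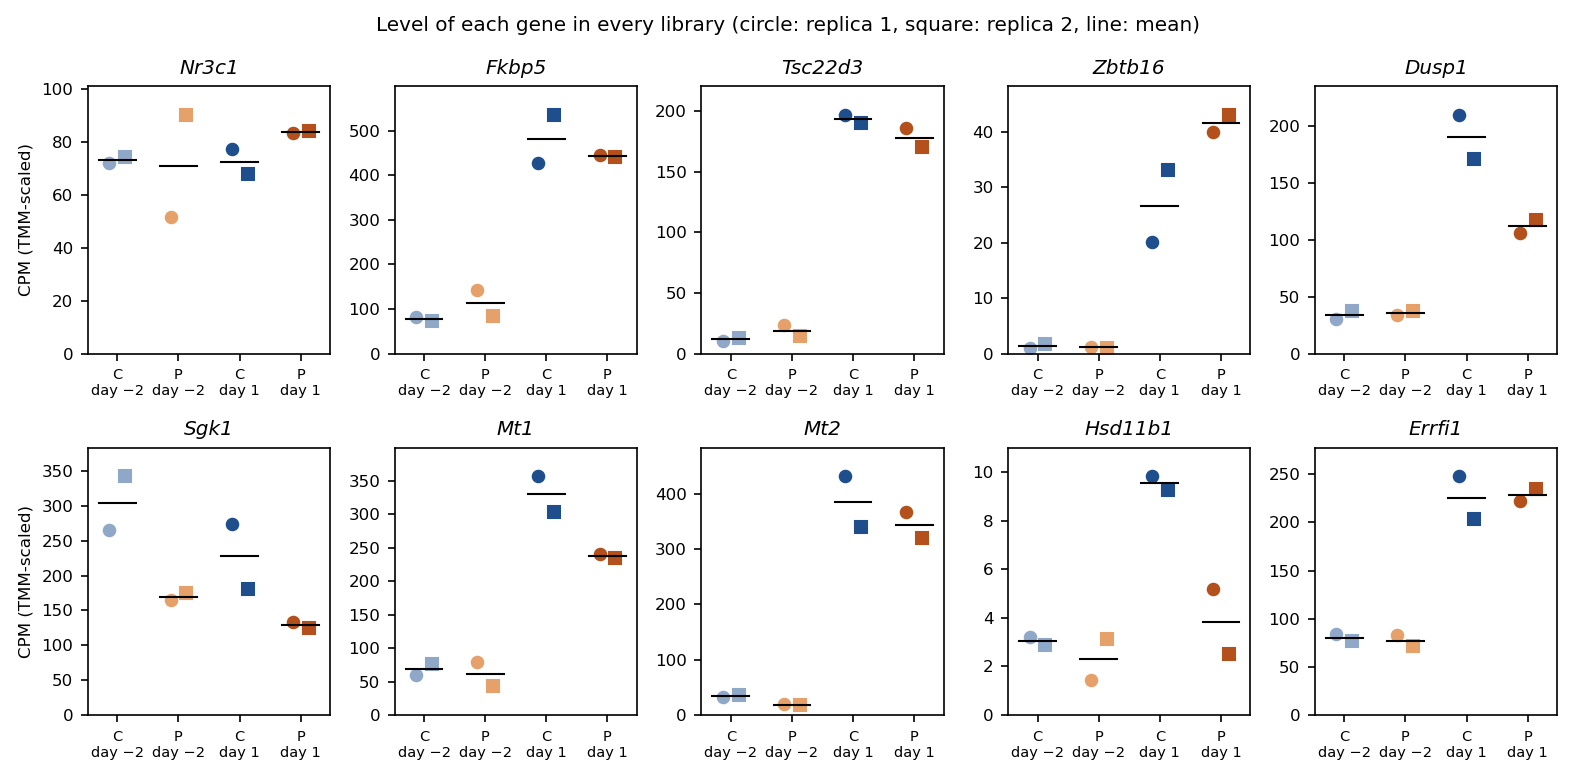
Level of each of the 10 genes in CPM (vertical axis, from 0) in the 8 libraries, grouped by condition on the horizontal axis; circles are replica 1, squares replica 2 and the line is the mean. All day 1 libraries lie above all day −2 libraries for Fkbp5, Tsc22d3, Zbtb16, Dusp1, Mt1, Mt2 and Errfi1, and Nr3c1 stays between 51.8 and 90.3 CPM.

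Nr3c1 (NCBI gene 14815), the receptor itself, was at 72.2 and 74.3 CPM in the C libraries and at 51.8 and 90.3 CPM in the P libraries of day −2. Induced C cells had 77.2 and 67.9 CPM, and induced P cells had 83.5 and 84.0 CPM. The lowest and the highest value are the 2 replicas of P cells at day −2, and the other 6 libraries lie between them. The log2 ratio of day 1 to day −2 was −0.01 in C cells (95% interval −0.61 to 0.59) and 0.24 in P cells (−0.36 to 0.84), so a change beyond 2-fold lies outside both intervals. In P against C cells it was −0.04 (−0.64 to 0.56) at day −2 and 0.21 (−0.39 to 0.81) at day 1. Both P libraries at day 1 were above both C libraries, by less than the test could call. Its 4 condition means span 1.18-fold, and the 95% intervals of these 4 ratios all include 0. Without replica 1 of P cells at day −2 the ratio in P cells turned to −0.12, and without replica 2 it was 0.70.

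Fkbp5 (NCBI gene 14229) encodes an immunophilin that joins the receptor complex and acts as a brake on it. Before induction it had 81.7 and 72.3 CPM in the C libraries and 142 and 84.2 CPM in the P libraries. Induced C cells had 427 and 536 CPM, and induced P cells 446 and 441 CPM. Every day 1 library stood above every day −2 library, and the P libraries at day 1 fell inside the range of the C libraries. Fkbp5 rose 6.25-fold in C cells (log2 ratio 2.64, standard error 0.27, adjusted p = 9.4e-04) and 3.93-fold in P cells (log2 ratio 1.97, standard error 0.27, adjusted p = 0.00349). Its paralogue Fkbp4, whose product competes for the same place in the complex, averaged 381 CPM in C and 511 CPM in P cells at day −2, and 218 and 232 CPM at day 1. Fkbp4 fell in P cells (log2 ratio −1.14, adjusted p = 0.0307) and had a log2 ratio of −0.80 in C cells that did not pass the ratio threshold (adjusted p = 0.0749). As a ratio of counts, Fkbp5 to Fkbp4 stood between 0.194 and 0.230 in the 4 libraries of day −2 and between 1.86 and 2.29 in those of day 1. These are ratios of read counts of 2 genes, not of their molecules, since they are not scaled to length.

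Tsc22d3 (NCBI gene 14605), the gene of the leucine zipper protein GILZ, had 10.6 and 12.8 CPM in the C libraries and 23.2 and 14.4 CPM in the P libraries of day −2. After induction the C libraries had 197 and 190.3 CPM and the P libraries 186 and 169.8 CPM. The day 1 libraries were far above all others and close to each other. It rose 16.5-fold in C cells (log2 ratio 4.05, standard error 0.26, adjusted p = 1.9e-04) and 9.47-fold in P cells (log2 ratio 3.24, standard error 0.25, adjusted p = 5.0e-04). At day −2 both P libraries were above both C libraries, with a log2 ratio of 0.68 (95% interval 0.11 to 1.25) whose adjusted p of 0.146 missed the threshold. This ratio was 0.31 without replica 1 of P cells at day −2 and 0.98 without replica 2. At day 1 the order was turned, with both P libraries below both C libraries by −0.12 on the log2 scale (−0.67 to 0.43).

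Zbtb16 (NCBI gene 235320), which encodes the zinc finger transcription repressor PLZF, had the largest rise of the 10 genes and the fewest counts at day −2. Its 4 libraries at day −2 held 23 to 40 counts each, which is 0.956 and 1.77 CPM for C and 1.22 and 0.963 CPM for P. By day 1 it had reached 20.1 and 33.1 CPM in the C libraries, and 40.0 and 43.1 CPM in the P libraries. The groups of the 2 days do not overlap, and at day 1 both P libraries lie above both C libraries. The rise was 19.5-fold in C cells (log2 ratio 4.29, standard error 0.38, adjusted p = 5.4e-04) and 38.2-fold in P cells (log2 ratio 5.26, standard error 0.40, adjusted p = 4.5e-04). At day 1 the ratio of P over C was 0.64 on the log2 scale (95% interval −0.11 to 1.40, adjusted p = 0.397), and at day −2 it was −0.32 (−1.28 to 0.63).

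Dusp1 (NCBI gene 19252) encodes a nuclear phosphatase that inactivates the stress kinases p38 and JNK and also ERK. Before induction the lines overlapped, at 30.0 and 37.2 CPM in the C libraries and 33.9 and 37.1 CPM in the P libraries. At day 1 the C libraries had 209.7 and 171 CPM but the P libraries 106 and 118 CPM. Both P libraries were thus above every library of day −2 and below both C libraries of day 1. It rose 5.66-fold in C cells (log2 ratio 2.50, standard error 0.19, adjusted p = 2.7e-04) and 3.15-fold in P cells (log2 ratio 1.65, standard error 0.18, adjusted p = 0.00154). At day 1 the log2 ratio of P over C was −0.77 (95% interval −1.18 to −0.35, adjusted p = 0.0709), which passed the adjusted p and missed the ratio threshold. Of all genes, 3.42% were lower in P cells at day 1 at the adjusted p alone.

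Sgk1 (NCBI gene 20393) encodes a kinase that regulates ion channels and transporters and is induced by steroids and serum in many cells. Like Nr3c1, Sgk1 was called in neither line at day 1 against day −2. It had 265 and 343 CPM in the C libraries and 164 and 175 CPM in the P libraries of day −2. At day 1 these were 274 and 181 CPM for C and 134 and 125 CPM for P. The highest P library lay below the lowest C library over both days. Its log2 ratio of day 1 to day −2 was −0.41 in C cells (95% interval −0.96 to 0.13, adjusted p = 0.223) and −0.39 in P cells (−0.93 to 0.15, adjusted p = 0.256), so a rise of 2-fold lies outside both intervals. In P against C cells it was −0.84 at day −2 (−1.39 to −0.30, adjusted p = 0.0856) and −0.82 at day 1 (−1.36 to −0.28, adjusted p = 0.123). The first passed the adjusted p but not the ratio threshold. At day 1, replica 1 of C cells was at the level of C cells before induction and replica 2 near that of P cells before induction.

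Errfi1 (NCBI gene 74155) encodes MIG6, an inhibitor that binds the EGF receptor. Its levels in the 2 lines were close at both days, at 84.2 and 76.4 CPM in the C libraries and 82.8 and 71.7 CPM in the P libraries of day −2. At day 1 they were 248 and 203 CPM for C and 222 and 235 CPM for P. The P libraries fell between the C libraries at day 1 and overlapped them at day −2. Errfi1 rose 2.81-fold in C cells (log2 ratio 1.49, standard error 0.16, adjusted p = 0.00117) and 2.96-fold in P cells (log2 ratio 1.57, standard error 0.16, adjusted p = 0.00134). In P against C cells its log2 ratio was −0.06 (95% interval −0.44 to 0.32) at day −2 and 0.02 (−0.36 to 0.40) at day 1.

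Mt1 and Mt2 (NCBI genes 17748 and 17750) encode metallothioneins, small proteins that bind zinc and copper and are induced by metals as well as by glucocorticoids. The genes are near-identical in parts, and the way reads shared by both were counted is not given in the sources used here, so the split between them is uncertain. Mt1 had 60.1 and 76.4 CPM in the C libraries and 78.6 and 42.7 CPM in the P libraries of day −2, and 357 and 303 against 241 and 235 CPM at day 1. Mt2 had 31.7 and 35.5 CPM in the C libraries and 20.2 and 17.2 CPM in the P libraries of day −2, and 431 and 339.9 against 367 and 319.9 CPM at day 1. Both genes had all day 1 libraries above all libraries of day −2, and Mt2 moved more. Mt1 rose 4.83-fold in C cells (log2 ratio 2.27, standard error 0.30, adjusted p = 0.00251) and 3.93-fold in P cells (log2 ratio 1.97, standard error 0.30, adjusted p = 0.00542). Mt2 rose 11.5-fold in C cells (log2 ratio 3.52, standard error 0.20, adjusted p = 9.9e-05) and 18.4-fold in P cells (log2 ratio 4.20, standard error 0.20, adjusted p = 1.3e-04). The count of Mt1 over that of Mt2 was 1.90 and 2.15 for C and 3.89 and 2.48 for P at day −2, and 0.827 and 0.891 for C and 0.657 and 0.735 for P at day 1. Mt1 thus held more reads than Mt2 in every library of day −2 and fewer in every library of day 1. Mt2 was also lower in both P libraries than in both C libraries before induction, with a log2 ratio of −0.85 (95% interval −1.28 to −0.41, adjusted p = 0.0466) that did not reach the ratio threshold. That of Mt1 was −0.17 (−0.86 to 0.51), with −0.67 and 0.20 on leaving out replica 1 or 2 of P cells.

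Hsd11b1 (NCBI gene 15483) encodes the enzyme that regenerates active glucocorticoid from its inactive 11-keto form and becomes abundant in mature fat cells. It had few counts, between 27 and 249 in a library. Before induction these made 3.23 and 2.88 CPM in the C libraries and 1.44 and 3.14 CPM in the P libraries. At day 1 the C libraries had 9.83 and 9.24 CPM and the P libraries 5.17 and 2.52 CPM. The C libraries of day 1 stand apart from the other 6, which overlap. It rose 3.12-fold in C cells (log2 ratio 1.64, standard error 0.44, adjusted p = 0.0362), and leaving out any 1 of the 4 C libraries kept the ratio between 1.56 and 1.73 and took the adjusted p to between 0.129 and 0.203. In P cells the log2 ratio was 0.73 (95% interval −0.34 to 1.80, adjusted p = 0.282), with 0.29 without replica 1 and 1.43 without replica 2 of P cells at day −2, and the latter was called. It was 0.13 without replica 1 and 1.16 without replica 2 of P cells at day 1. At day 1 the log2 ratio of P over C was −1.31 (−2.35 to −0.26, adjusted p = 0.192), with −1.92 without replica 1 and −0.89 without replica 2 of P cells at that day. DESeq2 called this difference (log2 ratio −1.34, adjusted p = 0.0681), as did the same edgeR test on the day 1 libraries alone (adjusted p = 0.0264) and without replica 1 or 2 of P cells at day −2 (adjusted p = 0.0101 and 0.0124), whose libraries enter this comparison only through the shared spread. With 54 to 249 counts at day 1, this gene has the widest interval of the 10 in this comparison.

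**Figure D2:**
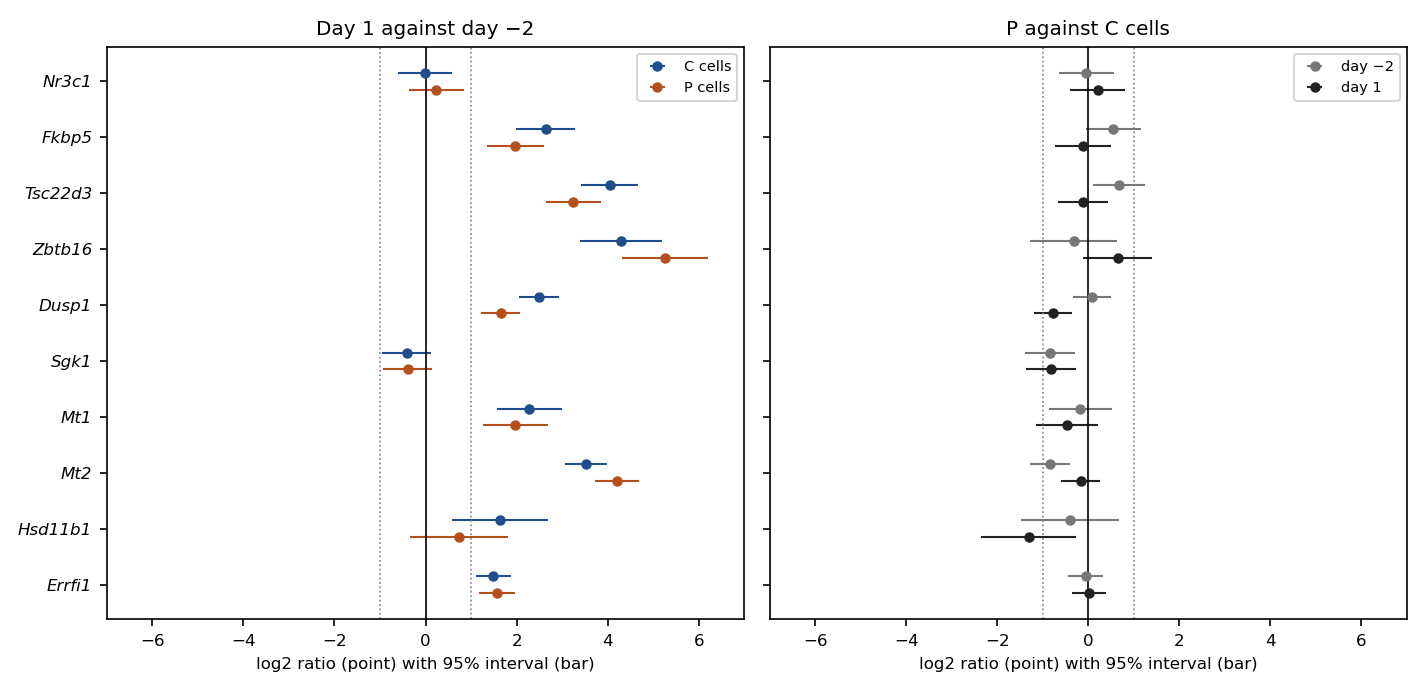
Log2 ratio of each gene (point, horizontal axis) with its 95% interval (bar) from the edgeR fit, for day 1 against day −2 on the left and P against C cells on the right; dotted lines mark ratios of 0.5 and 2. In both lines 7 genes rose, with Hsd11b1 as an eighth in C cells, and the points of P against C cells lie between −1.31 and 0.68.

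Before induction, the question is whether these genes differed between P and C cells. At day −2, edgeR called 0 of the 10 genes in P against C cells, while 4.83% of all genes were higher and 2.15% lower. At an unadjusted p under 0.05, 3 of the 10 passed, Tsc22d3, Sgk1 and Mt2, as did 25.2% of all genes. DESeq2 called 0 of the 10 and 9.58% of all genes. At the adjusted p alone, Sgk1 and Mt2 were lower, and 3.72% of all genes were. Both P libraries stood above both C libraries for Fkbp5 and Tsc22d3, as for 26.5% of all genes, and below them for Sgk1 and Mt2, as for 27.3%. The median log2 ratio of the 10 genes was −0.11, with 3 above 0 and 7 below, and that of all genes was 0.01. With library totals in place of TMM scaling, under which the median of all genes shifted to −0.18, Sgk1 (−1.03) and Mt2 (−1.04) passed the ratio threshold too. Without replica 2 of P cells at day −2, Hsd11b1 was called (log2 ratio −1.09, adjusted p = 0.0642), in a fit that called 31.3% of all genes.

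At day 1, edgeR again called 0 of the 10 genes in P against C cells, with 1.83% of all genes higher and 2.23% lower. At an unadjusted p under 0.05, 3 passed, Dusp1, Sgk1 and Hsd11b1, all of them lower in P cells, as did 16.2% of all genes in either direction. DESeq2 called 1 of the 10, Hsd11b1, and 5.13% of all genes. The groups did not overlap for 7 genes, with Nr3c1 and Zbtb16 higher in both P libraries, as 30.6% of all genes were, and Tsc22d3, Dusp1, Sgk1, Mt1 and Hsd11b1 lower, as 29.9% were. The median log2 ratio was −0.15, against 0.01 for all genes. The sums of the adipocyte markers, given above, were higher in P than in C cells at both days. Not every marker tested was called as higher at each day. The part of these markers in the differences of the 10 genes was not tested.

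The difference in response between the lines, tested as an interaction, asks whether the induction itself differed between P and C cells. It uses the same libraries as the comparisons above and is not independent of them. By edgeR it was called for 0 of the 10 genes, while 0.435% of all genes had a higher and 1.93% a lower response in P cells. At an unadjusted p under 0.05, 3 of the 10 passed, Tsc22d3, Dusp1 and Mt2, as did 14.4% of all genes. Dusp1 had a difference, P minus C, of −0.85 on the log2 scale (95% interval −1.44 to −0.25, adjusted p = 0.205), and DESeq2 called it (−0.87, adjusted p = 0.0751) and 6.86% of all genes. That of Tsc22d3 was −0.80 (−1.59 to −0.01, adjusted p = 0.343), while Mt2 had 0.68 (0.07 to 1.28, adjusted p = 0.309). Zbtb16 had the largest difference, 0.97, with an interval of −0.25 to 2.19, and Hsd11b1 the widest interval, −2.40 to 0.58 around −0.91. Fkbp5 had −0.67 (−1.53 to 0.19), Mt1 −0.30 (−1.26 to 0.67), Nr3c1 0.25 (−0.60 to 1.10), Errfi1 0.08 (−0.46 to 0.61) and Sgk1 0.02 (−0.74 to 0.79). For Errfi1 and Sgk1 a difference of 2-fold lies outside the interval.

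This comparison rests on the replicas of P cells at day −2, which lay far apart. Without replica 1, Dusp1 (−0.94, adjusted p = 0.0333) and Mt2 (0.76, adjusted p = 0.0744) were called, 2 of the 10, in a fit that called 10.6% of all genes. Without replica 2, 6 of the 10 were called, namely Nr3c1, Fkbp5, Tsc22d3, Dusp1, Mt1 and Mt2, in a fit that called 60% of all genes, so their share was that of the background. Dusp1 and Mt2 were called in both. In those fits the single P library left at day −2 is assumed to vary like the other conditions. Between the 2 fits the sign changed for Nr3c1, from −0.13 to 0.71, for Mt1, from 0.17 to −0.67, and for Sgk1 and Errfi1 from −0.05 to 0.07 and from 0.15 to −0.02.

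**Figure D3:**
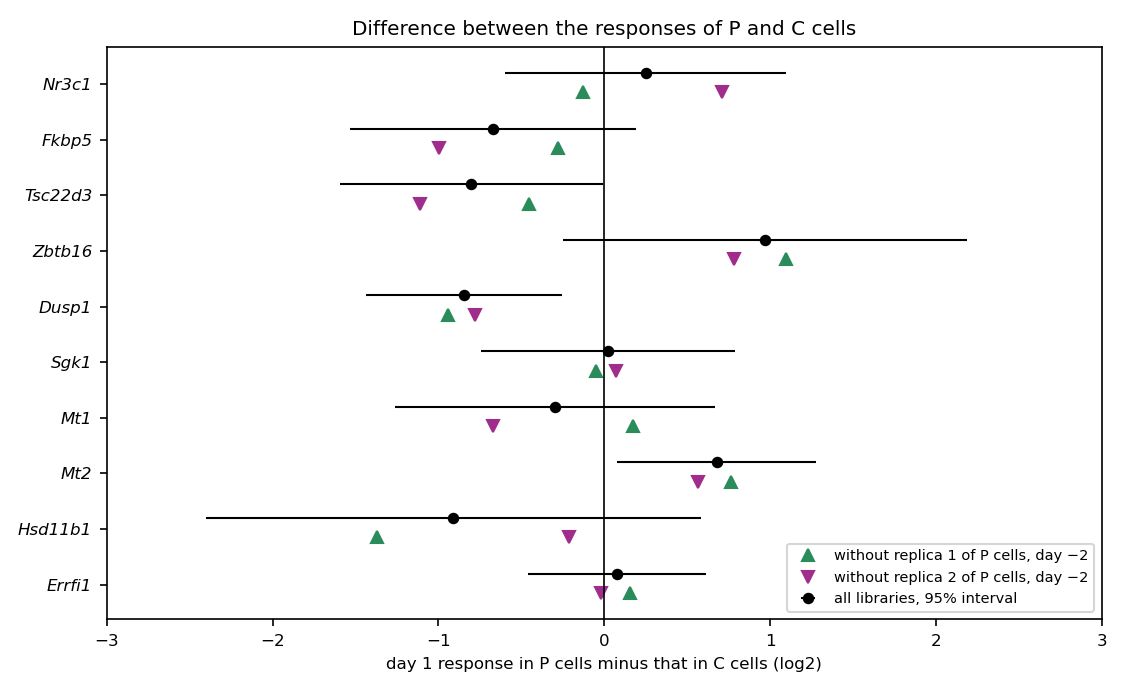
Response in P cells minus response in C cells (log2, horizontal axis) for each gene, with all libraries (black point, 95% interval) and without replica 1 (green) or replica 2 (purple) of P cells at day −2. The values of Dusp1 stay between −0.94 and −0.78 and those of Mt2 between 0.57 and 0.76, and those of Nr3c1, Mt1, Sgk1 and Errfi1 lie on both sides of 0.

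The genes of the proteins that hold the receptor in its inactive complex, such as Hsp90 and its cochaperones, were mostly not called. Of 14 chaperones and related genes listed, none rose and 1 fell in C cells, Hsp90aa1 (log2 ratio −1.09, adjusted p = 0.00626), where 10.7% of all genes rose and 9.68% fell. In P cells none rose and 1 fell, Fkbp4, where 7.65% and 10.4% of all genes did. Without replica 1 of P cells at day −2, Fkbp4 had −0.67 and none was called, and without replica 2, 2 rose and 2 fell, where 19.8% and 15.9% of all genes did. The median log2 ratio was −0.46 for C and −0.24 for P, against −0.01 and 0.02 for all genes. Among 15 coregulators tested of 17 listed, Nrip1, which encodes the corepressor RIP140, rose in P cells from 18.3 to 64.6 CPM (log2 ratio 1.82, adjusted p = 9.0e-04) and was higher in P than in C cells at day 1 (log2 ratio 1.00, adjusted p = 0.0263). Its response differed between the lines (1.36, adjusted p = 0.0546), and with all libraries it was the only coregulator called in any of these comparisons. Of all genes, 7.65% rose in P cells, 1.83% were higher in P than in C cells at day 1 and 0.435% had a higher response in P cells. Its ratio at day 1 lay on the threshold, at 1.001 with all libraries and at 0.978 and 0.998 without replica 1 or 2 of P cells at day −2, when it was not called. The difference in its response was 1.21 and 1.49 in those fits.

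Genes that metabolise or export glucocorticoids had too few counts in 5 of 10 cases, and 5 were tested. Abcb1b, an efflux pump of the P-glycoprotein type that carries dexamethasone, fell from 44.4 to 9.45 CPM in C cells (log2 ratio −2.23, adjusted p = 2.7e-04) and from 35.1 to 8.71 CPM in P cells (log2 ratio −2.01, adjusted p = 5.9e-04). Its neighbour in sequence Abcb1a fell as well, with 14 to 92 counts in a library, and reads of the 2 may not be fully separated. H6pd, which supplies the cofactor of the Hsd11b1 enzyme, had log2 ratios of 0.50 and 0.35 that passed no ratio threshold. Hsd11b2, which inactivates glucocorticoid, had 1 count in a single library and none in the others.

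Genes of the same families as the targets showed how far the rise was shared. In the TSC22 family, Tsc22d3 was the only one of 4 called at day 1 against day −2. Tsc22d1, Tsc22d2 and Tsc22d4 had log2 ratios of 0.34, −0.55 and 0.47 for C and 0.49, −0.79 and −0.41 for P. Of 12 dual specificity phosphatases, Dusp1 and the ERK phosphatase gene Dusp6 rose in both lines, while 4 fell in C and 5 in P cells, against 10.7% and 9.68% of all genes for C and 7.65% and 10.4% for P. The counts in P cells were also 2 and 5 without either replica of P cells at day −2, but Dusp6 had 0.85 without replica 2 and was not called. Dusp4 fell in both, with log2 ratios of −2.60 for C and −2.59 for P. Dusp9 fell from 444 to 522 counts in a library of C cells to 5 to 7, a log2 ratio of −6.38 (adjusted p = 7.4e-04), and by −3.84 in P cells. In P against C cells, 3 phosphatase genes were lower at each day, among them Dusp4 with −1.36 and −1.35, where 2.15% and 2.23% of all genes were. At day −2 the number was 5 without replica 1 and 5 without replica 2 of P cells, in fits that found 2.55% and 17.3% of all genes lower. Around Sgk1, its substrate Nedd4l, a ubiquitin ligase of ion channels, fell in C cells (−1.75) and P cells (−1.02), the latter with −0.83 and no call without replica 2 of P cells at day −2. Ndrg2, of a family phosphorylated by SGK1, rose in both lines, from 30 to 34 counts to 80 to 88 in C cells and from 6 to 11 counts to 139 to 147 in P cells, and this response was called as larger in P cells (2.82, adjusted p = 0.0264). Ndrg1, of the same family, rose in C cells (1.84, adjusted p = 0.00537) and was not called in P cells with all libraries. At day 1 it was lower in P than in C cells (−1.21, adjusted p = 0.0765). The EGF receptor gene Egfr, whose product Errfi1 restrains, rose in both lines and was higher in P than in C cells at day −2 (1.33, adjusted p = 0.0195, but 0.97 and not called without replica 2 of P cells) and at day 1 (1.97, adjusted p = 0.00704), while its ligand gene Hbegf fell (−2.42 for C and −2.25 for P).

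**Figure D4:**
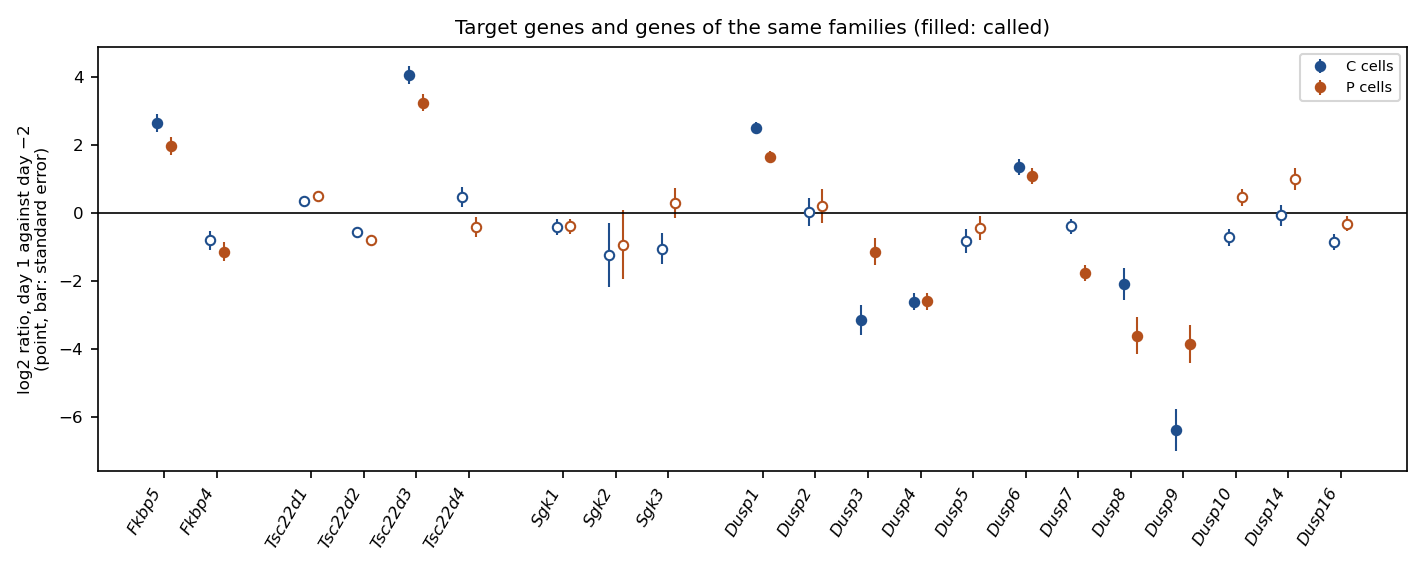
Log2 ratio of day 1 to day −2 (vertical axis, point with standard error) in C cells (blue) and P cells (orange) for Fkbp5 and Fkbp4 and for genes of the TSC22, SGK and DUSP families; filled points were called. Tsc22d3 stands alone in its family at 4.05 and 3.24, while the phosphatases spread from −6.38 for Dusp9 to 2.50 for Dusp1 in C cells.

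The metallothioneins are also targets of the metal sensing factor encoded by Mtf1, so genes of the metal and oxidant response were counted beside them. Of 9 tested, 2 rose and 3 fell in C cells, and 1 rose and 1 fell in P cells, against 10.7% and 9.68% of all genes for C and 7.65% and 10.4% for P. In P cells, 1 rose and 3 fell without replica 1 of day −2, where 7.3% and 7.79% of all genes did, and without replica 2 the count was again 1 and 1. The zinc importer gene Slc39a14 rose in both lines (log2 ratios 1.46 and 1.38) and Hmox1, which encodes heme oxygenase, fell in both (−1.17 and −1.32). Gclc and Gclm, the subunits of the enzyme that starts glutathione synthesis, went apart in C cells, with 1.24 (adjusted p = 0.00167) and −1.36 (adjusted p = 0.00848). Mtf1 itself had log2 ratios of 0.29 and 0.20 that were not called.

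A wider list of 48 other genes reported as induced by glucocorticoids in various tissues had 40 tested. In C cells, 22 rose and 3 fell (median log2 ratio 1.22), where 10.7% and 9.68% of all genes did, and in P cells 18 rose and 4 fell (0.71), where 7.65% and 10.4% did. In P cells, 22 of 41 rose and 4 fell without replica 1 of day −2, where 7.3% and 7.79% of all genes did. Without replica 2, 17 of 41 rose and 7 fell, where 19.8% and 15.9% of all genes did. Lcn2, the iron-carrier lipocalin, went from 4 counts in each C library of day −2 to 3424 and 4535 counts, and from 6 and 19 counts to 2201 to 2241 in P cells. Glul, which encodes glutamine synthetase, rose from 38.2 to 271 CPM in C cells (log2 ratio 2.82) and from 32.1 to 306 CPM in P cells (3.26), and the transcription factor gene Foxo1 rose in both (2.67 and 1.85). Klf9, a Krüppel-like factor, rose in both lines by 2.04 and 2.07. Some of the list went down: Cryab, a small heat shock protein gene, fell from 58.9 to 3.25 CPM in C cells (−4.18) and from 67.8 to 4.17 CPM in P cells (−4.02), and Anxa1 and Fbxo32 fell in both lines as well.

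Before induction, 8 of these 40 genes were higher and 1 was lower in P than in C cells, with a median log2 ratio of 0.51, where 4.83% and 2.15% of all genes were. The median was 0.46 with genes at 0 in a condition set at their bound. Hp, the haptoglobin gene, had 3 to 5 counts in the C libraries and 69 to 90 in the P libraries (adjusted p = 0.00142), and Cebpd and Zfp36 had log2 ratios of 2.63 and 1.54. Mertk, a receptor for dying cells, was lower (−1.21, adjusted p = 0.0453). The count was 7 higher and 3 lower of 41 without replica 1 of P cells at day −2, where 3.94% and 2.55% of all genes were, and 12 higher and 1 lower without replica 2, where 14% and 17.3% were. At day 1, 1 was higher and 3 were lower, among them Ampd3 and Ndrg1, where 1.83% and 2.23% of all genes were. Both of these counts were larger in each fit without a P library of day −2, as were the shares of all genes called as higher and as lower. The difference between the responses was called for 1 gene as higher, Mertk, and for 4 as lower, among them Hp, Cebpd and Cebpa, where 0.435% and 1.93% of all genes were called, and the median difference over the list was −0.73. Without replica 1 of P cells at day −2 it was called as higher for 3 and lower for 13, where 3.03% and 7.52% of all genes were, and without replica 2 for 5 and 19, where 29.8% and 30.2% were. These counts thus moved by 3-fold or more with a single library, while Mertk, Hp, Cebpd and Cebpa were called in both fits. The comparisons of P with C cells at day −2 and of the responses share the libraries of day −2, so their values are not independent.

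Of 28 genes known to be repressed by glucocorticoids in inflamed or resting cells, 19 were tested. In C cells 10 fell and 6 rose, and in P cells 10 fell and 2 rose, with medians of −1.59 and −1.67. Of all genes, 9.68% fell and 10.7% rose for C, and 10.4% and 7.65% for P. In P cells, 12 of 21 fell and 3 rose without replica 1 of day −2, where 7.79% and 7.3% of all genes did, and without replica 2, 11 fell and 3 rose, where 15.9% and 19.8% did. Mmp3, a matrix metalloproteinase gene, fell from 34.6 to 0.634 CPM in C cells (−5.76), and the plasminogen activator genes Plau (−3.81) and Plat (−2.14) and Ptgs2 (−1.73), which encodes the prostaglandin synthase COX-2, fell too. In P cells, Plau (−4.69), Plat (−2.20), Ptgs2 (−2.01) and Mmp3 (−1.67) fell as well. The genes that rose in C cells included those of the chemokines Ccl5 (3.52) and Cxcl10 (1.76), the prostaglandin synthase gene Ptges (1.37) and Dlk1 (1.05), a preadipocyte gene. Before induction, 1 was higher in P than in C cells, Csf1 (1.19), the gene of a macrophage growth factor, and 2 were lower, Mmp3 (−1.98, adjusted p = 0.0115) and Plat (−1.48), where 4.83% and 2.15% of all genes were. Csf1 had 0.77 without replica 1 of P cells and was not called, and the counts were 2 and 3 of 21 without replica 1 and 1 and 6 without replica 2, where 3.94% and 2.55%, and 14% and 17.3%, of all genes were. At day 1, 1 was higher and 4 were lower in P than in C cells, Mmp3 (2.11) against Plat, Cxcl10, Ccl5 and Lif (−1.54 to −1.91), where 1.83% and 2.23% of all genes were. In each fit without a P library of day −2 more of the list were lower, as was the case for all genes, and the number higher stayed the same. Mmp3 was thus lower in P cells before induction and higher after it, and its response differed between the lines by 4.09 on the log2 scale (adjusted p = 0.0127).

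**Figure D5:**
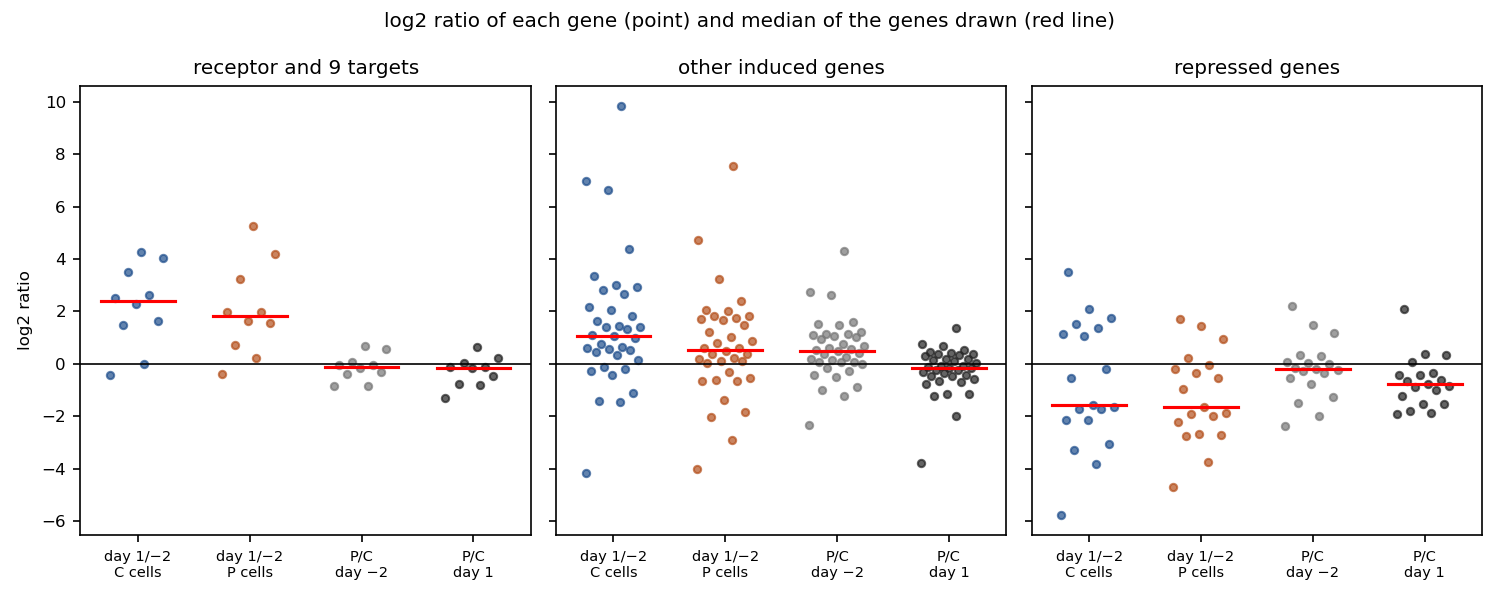
Log2 ratio of each gene (point, vertical axis) for the 10 genes, the 36 of 40 other induced genes with counts in every condition and the 19 repressed genes, in 4 comparisons (horizontal axis); the red line is the median of the points drawn. The 10 genes have medians of 2.39 and 1.81 for day 1 against day −2 and of −0.11 and −0.15 for P against C cells.

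The genes whose pattern over the 8 libraries came closest to each of the 10 were found by the root mean square difference of log2 CPM, each gene centred on its own mean, over 10894 genes. The closest matches were those of Nr3c1, with 0.053 for Abhd10 and 0.054 for Spcs2. The condition means of Nr3c1 moved little, and its lowest and highest log2 CPM, 5.70 and 6.50, were the 2 replicas of P cells at day −2. Matches this close follow that gap between replicas too. Errfi1 was followed by Zmiz1 (0.13) and Clmp (0.15), Sgk1 by Plp2 (0.13) and Mmgt2 (0.17), and Fkbp5 by Lrp5 (0.16) and Nfatc4 (0.19). Dusp1 had H2-Ke6 and Pdcd4 at 0.22 each, Mt1 had 9330102E08Rik (0.21) and Tmem205 (0.22), and Hsd11b1 had Medag (0.28) and Zfp658 (0.30). The strongly rising genes had looser matches, Nid2 (0.29) and Peli2 (0.30) for Tsc22d3, Pi16 (0.34) and Slc2a13 (0.36) for Mt2, and Mest (0.40) and Lbp (0.50) for Zbtb16. Among the 10 themselves, Dusp1 and Mt1 were nearest to each other, at 0.30. Mt1 was nearer to Dusp1 than to Mt2. These values describe 8 libraries. For the genes that rose in both lines, a large part of the pattern is the difference between the days.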

How the data were processed

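RNA of 3T3-L1 cells was sequenced on the Ion Torrent system in 8 libraries, 2 biological replicas for each of C and P cells at day −2 and day 1. Artifacts were removed by the authors with the FASTX-Toolkit, and the reads were mapped to mm9 by TopHat 2.0.9 and counted per gene of the UCSC refGene annotation. The deposited values are raw read counts of 24013 genes. The handling of reads from several places and of the strand is not given in the sources used here. Symbols came from a RefSeq list (GRCm38.p6), which matched 23929 genes, and 84 kept their number. No sequences or coordinates were used.

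The counts were tested in R 4.3.3 with the quasi-likelihood test of edgeR 4.0.16 (limma 3.58.1), after filterByExpr (13339 genes) and TMM scaling, with 1 mean per condition over all 8 libraries and no block. All tests were two-sided, with Benjamini-Hochberg adjustment over the genes tested. A gene was called at an adjusted p-value under 0.1 and a ratio over 2 or under 0.5, the thresholds of the study, and an interaction at the adjusted p alone. Standard errors follow from the log2 ratio and the F statistic, and intervals are at the 95% level. CPM use the TMM sizes, and log2 CPM a prior count of 2. The fit was tested on simulated data.

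The 10 genes and all lists were chosen with earlier results of these data known. All 10 genes and Pknox1 are named in each comparison. From the other lists, the called genes of lowest p, up to 4 in each direction, with a mean of at least 50 counts could be named per comparison, and the 2 genes most like each of the 10 were taken over genes with the same mean. Abcb1a, H6pd, Hsd11b2, Mtf1, the uncalled Tsc22 genes, and values of named genes in comparisons outside this rule were given after they were seen. A list on the response to cAMP is described with the closing observations.

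As alternatives, the test was run with DESeq2 1.42.0, with scaling by its size factors or by library totals, without the filter, with a filter of 10 counts in every library, on a comparison's own conditions, with the replica number as a block, at an adjusted p-value of 0.05, without the threshold on the ratio, and leaving out 1 library at a time. The labels do not say whether replica numbers mark shared cultures.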

Additional observations from a re-analysis of the deposited data

How the results depend on the processing

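All tests rest on 2 replicas a condition and 1 shared spread. For the genes called as higher at day 1 in both lines, the rises were larger than the differences between the lines, at similar standard errors. For Dusp1 these errors were 0.185 and 0.180 for the rises, and 0.177 and 0.176 for P against C cells. The number of the 10 genes called at day 1 against day −2 was 7 to 8 in both C and P cells when any 1 library was left out. In P against C cells at day −2 it was 0, and it became 2 with library totals and 2 without the ratio threshold, with 0 to 1 when a library was left out. At day 1 it was 0, and it became 1 with DESeq2, 1 with its own conditions only and 1 without the ratio threshold, with 0 to 1 when a library was left out. For the difference between the responses it was 0, and it became 1 with DESeq2. It also moved when a P library of day −2 was left out, as described above with the shares of all genes called. Of all genes, DESeq2 called 9.58% at day −2, 5.13% at day 1 and 6.86% for the responses. The genes called without the ratio threshold in P against C cells were all lower. At the adjusted p alone, 3.72% of all genes were lower at day −2 and 3.42% at day 1.

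With the replicate block the counts were 8, 7, 0, 0 and 0, in the order of the comparisons above, and so the block changed none of them. The same numbers came out with the replica numbers of P cells at day 1, or of all day 1 libraries, crossed, settings chosen after seeing the data. Across genes, libraries of the same number had deviations that correlated between −0.36 and 0.21, negative in 5 of 6 pairs, so the number was not taken as a pairing.

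Of 840 values of single genes under the alternatives, 790 kept their direction and side of the thresholds, 4 lost the call, all of them Hsd11b1 in C cells, 17 gained one and 29 changed sign. Library totals shifted the median log2 ratio of all genes by −0.11, 0.19, −0.18, 0.11 and 0.29 in the same order. The sign changed for Dusp1 at day −2 with library totals (−0.11), for Mt1 in the responses with library totals (0.035), for Nr3c1 in C cells with no filter (0.014), and for Errfi1 at day 1 with DESeq2 (−0.0082) and its size factors (−0.0051). With a library left out, Nr3c1 ranged from −0.080 to 0.090 in C cells, from −0.12 to 0.70 in P cells, from −0.51 to 0.31 at day −2 and from −0.13 to 0.71 in the responses. At day −2, Dusp1 ranged from −0.070 to 0.24, Errfi1 from −0.16 to 0.038, Zbtb16 from −0.71 to 0.18, Mt1 from −0.67 to 0.20 and Hsd11b1 from −1.09 to 0.047. At day 1, Errfi1 ranged from −0.13 to 0.14 and Fkbp5 from −0.30 to 0.041. In the responses, Sgk1 ranged from −0.25 to 0.34, Mt1 from −0.67 to 0.17 and Errfi1 from −0.057 to 0.21. The cause of these changes was not tested.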

Other observations

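The cocktail also holds IBMX, which raises cAMP, so the 23 genes of a list on the response to cAMP, all tested, were counted beside the glucocorticoid targets. In C cells 14 rose and 4 fell (median log2 ratio 1.39), where 10.7% and 9.68% of all genes did, and 7 rose and 3 fell in P cells (0.76), where 7.65% and 10.4% did. In P cells, 11 rose and 3 fell without replica 1 of day −2, where 7.3% and 7.79% of all genes did, and without replica 2, 8 rose and 3 fell, where 19.8% and 15.9% did. Pde4d and Pde3b, phosphodiesterase genes, rose in C cells by 2.96 and 1.89 on the log2 scale and in P cells by 1.58 and 2.18. The regulatory subunit gene Prkar2b, the anchor gene Akap12 and the prostaglandin receptor gene Ptger4 fell in both lines, between −3.73 and −1.92. Before induction, 8 were higher and 2 lower in P than in C cells, where 4.83% and 2.15% of all genes were, among them the immediate early gene Egr1 (1.82, adjusted p = 0.00346 from the same edgeR test) and the orphan receptor genes Nr4a1 (1.57) and Nr4a3 (3.34). The count was 5 higher and 1 lower without replica 1 of P cells at day −2, where 3.94% and 2.55% of all genes were, and 8 higher and 5 lower without replica 2, where 14% and 17.3% were. The response to induction was called as lower in P cells for Egr1, Nr4a1, Nr4a3 and Pde4d, with differences between −2.74 and −1.37, where 1.93% of all genes had a lower response. The response was lower for 8 and higher for none without replica 1 of P cells at day −2, where 7.52% and 3.03% of all genes were called, and without replica 2 it was lower for 13 and higher for 4, where 30.2% and 29.8% were. The 4 named genes were called in both fits.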
